A study of Homo sapiens with 8 samples.

Results

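CTGF, CYR61 and ANKRD1 are the genes most often used as readouts of the transcriptional coactivators YAP and TAZ and of their DNA-binding partners, the TEAD factors. The regions described here are those called by chromatin immunoprecipitation followed by sequencing (ChIP-seq) within 50 kb of the 3 gene bodies, by at least 1 bp. They number 107 of the 972037 regions in the 3 lists analysed: 35 of 262109 for TEAD4 under SB431542, 32 of 289380 for TEAD4 in DMSO and 40 of 420548 for SMAD2 in DMSO. The gene bodies, in hg19, were chr6:132269316-132272518 for CTGF, chr1:86046444-86049648 for CYR61 and chr10:92671853-92681033 for ANKRD1. The genes are named as known YAP-TEAD targets, and the choice was made with earlier results of these data known.

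All libraries came from WA09 cells, an established line of human embryonic stem cells, kept on Matrigel in medium conditioned by mouse embryonic fibroblasts (MEF), with knockout serum. Cells were treated for 4 h with 10 µM SB431542, which inhibits the type I receptors for activin, Nodal and TGF-β, or with the solvent DMSO. The groups used were TEAD4 precipitates of SB431542-treated cells, TEAD4 precipitates of DMSO-treated cells and SMAD2 precipitates of DMSO-treated cells, with 1 library each. The labels also name input DNA and normal rabbit IgG under both treatments and SMAD2 under SB431542, which were not analysed here.

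In the Hippo pathway a kinase cascade holds YAP and TAZ in the cytoplasm, and when the cascade is off they enter the nucleus and act through TEAD proteins, which bind the DNA. SMAD2 is the signal transducer that activin, Nodal and TGF-β receptors phosphorylate, and it acts in the nucleus with SMAD4 and other DNA-binding partners. CTGF (now CCN2) and CYR61 (now CCN1) encode secreted matricellular proteins of the CCN family, and ANKRD1 encodes an ankyrin repeat protein best known from heart and skeletal muscle. CTGF is in addition a widely used target of TGF-β signalling.

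Each list gave only the position of its regions, with no score, read count or p-value, and the depth is unknown. A row number is the line of a region in its list, and since the median width is larger in the first 10% of each list than in the last, small numbers were read as higher places. The fall is not steady in the SB431542 list, where the median is 147 bp in the fourth step of 10% and 169 bp in the fifth. The rows stand in long runs of falling genome order, in which the place within the run follows position alone. Over all rows the median length of such a run was 528 rows for TEAD4 under SB431542, 3907 for TEAD4 in DMSO and 328 for SMAD2, so that a row number far down a list is coarse. Within the first 1000 rows the median was 2, 6.5 and 6 rows in the same order. The DMSO lists lie on a 50 bp grid (100% of starts) and the SB431542 list does not (1.97% of starts), so a TEAD4 region in only 1 list cannot be told apart from a difference in how the lists were made. Every group had a single library, so replicate error and tests are lacking, and the intervals cover counting error alone.

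The promoter of CTGF carried a TEAD4 region in both treatments. Its sequence is shown with that of ANKRD1 because TEAD factors read the letters GGAATG and because, counted from the hg19 gene starts, a TEAD4 region was called over the start of CTGF and none over that of ANKRD1. Both are RefSeq sequences of GRCh38.p14, from 250 bases before the gene start to 50 after it, on the minus strand, 5′ to 3′. The capitals mark GGAATG. CYR61 is named only.
CTGF promoter: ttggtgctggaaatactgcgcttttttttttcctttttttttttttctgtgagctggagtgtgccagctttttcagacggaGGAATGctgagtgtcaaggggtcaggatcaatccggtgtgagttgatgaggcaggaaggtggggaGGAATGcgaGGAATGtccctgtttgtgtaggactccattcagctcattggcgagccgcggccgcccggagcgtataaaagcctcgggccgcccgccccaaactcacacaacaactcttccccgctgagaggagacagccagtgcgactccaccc
ANKRD1 promoter: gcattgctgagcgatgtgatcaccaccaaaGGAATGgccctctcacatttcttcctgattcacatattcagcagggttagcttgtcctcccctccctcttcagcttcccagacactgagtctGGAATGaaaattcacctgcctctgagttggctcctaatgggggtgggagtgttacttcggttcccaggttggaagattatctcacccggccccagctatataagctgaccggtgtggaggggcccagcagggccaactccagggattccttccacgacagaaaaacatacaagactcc

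The CTGF window held 3 matches to GGAATG, which start 169, 104 and 95 bases before the gene start, all on the strand of the gene. The ANKRD1 window held 2, which start 220 and 128 bases before the gene start. Of 35116 RefSeq promoter windows of the same length, 14.0% held at least 1 GGAATG on either strand, 1.37% held at least 2 and 0.128% (45 windows) held at least 3. The variant GGAATT, present in 11.2% of windows, had no match in either promoter.

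CAGAC, a short motif read by SMAD proteins, was found in 45.3% of all windows and occurred 1 time in the CTGF promoter and 2 times, once on each strand, in the ANKRD1 promoter. The AP-1 motif TGANTCA, found in 7.71% of windows, had 1 match at ANKRD1, starting 195 bases before the gene start, and no match at CTGF. None of these matches overlapped another except the second CAGAC of ANKRD1, which shares 1 base with the nearer GGAATG. A match is a run of letters and not a measured site.

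A list of 17 other genes of the pathway (targets, TEADs, YAP1 and WWTR1) was set beside them. Of these, 13 had an entry, with 17 promoter windows in all. GGAATG was present in 8 of the 17 windows (47.1%, against 14.0% of all windows), those of AJUBA, AMOTL2, AXL, LATS2, NUAK2, PTPN14, TGFB2 and YAP1. CAGAC was present in 11 windows, of 9 genes (64.7%, against 45.3%), so that GGAATG was not the only motif above its background share. GGAATT was present in 1 (5.88%, against 11.2%), that of AJUBA, and TGANTCA in 1 (5.88%, against 7.71%), that of F3. No test was made, and windows of the same gene are not independent. For these genes the count of motifs was not planned. Regions near these genes were not analysed here, because no hg19 annotation was at hand.

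At CTGF the region over the gene start was row 12 of 289380 in the TEAD4 list of DMSO cells. The TEAD4 region under SB431542 lay at chr6:132272495-132272790 (row 398, 296 bp wide), and the one in DMSO at chr6:132272401-132273099 (row 12, 699 bp wide). The SB431542 region lay wholly inside the DMSO region and made up 42.3% of its length. The SB431542 region reached from 272 bp before the gene start to 23 bp after it, and the DMSO region from 581 bp before to 117 bp after it.

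Measured from the gene start in hg19, the SB431542 region covered 274 of the 300 bases of the promoter window and the DMSO region all 300. The 3 GGAATG matches, counted from the RefSeq start, fall at distances inside both regions. The gene is 3197 bp long in GRCh38.p14 and 3203 bp in hg19, so that the starts may differ by a few bases. No SMAD2 region was called over this window. The SMAD2 region nearest the gene start lay 1.83 kb upstream at chr6:132274351-132274499, in row 133248 (31.7% of the way down the SMAD2 list).

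CTGF had 11 TEAD4 regions under SB431542, 7 TEAD4 regions in DMSO and 15 SMAD2 regions in DMSO within 50 kb. Apart from the promoter pair, no TEAD4 region of one treatment overlapped one of the other. The next places under SB431542 were row 14800 (chr6:132236165-132236362, 33.0 kb past the end of the gene) and row 19311 (chr6:132243340-132243578, 25.7 kb past the end). In DMSO no other TEAD4 region near CTGF stood in the first 10% of rows. The next was row 96882, 38.7 kb upstream, in a run from row 95313 to row 102743.

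SMAD2 had its highest place near CTGF just past the end of the gene. That region, chr6:132267951-132268249 (row 3070, in a run from row 3045 to row 3191), lay 1.07 kb beyond the gene body and was 299 bp wide. A TEAD4 region of SB431542 cells in row 239636 lay 37 bp from it without overlap, and the nearest TEAD4 region of DMSO cells was 4151 bp away. The other SMAD2 region in the first 10% of rows was row 14578, at chr6:132300701-132300949, 28.2 kb upstream of CTGF.

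**Figure D1:**
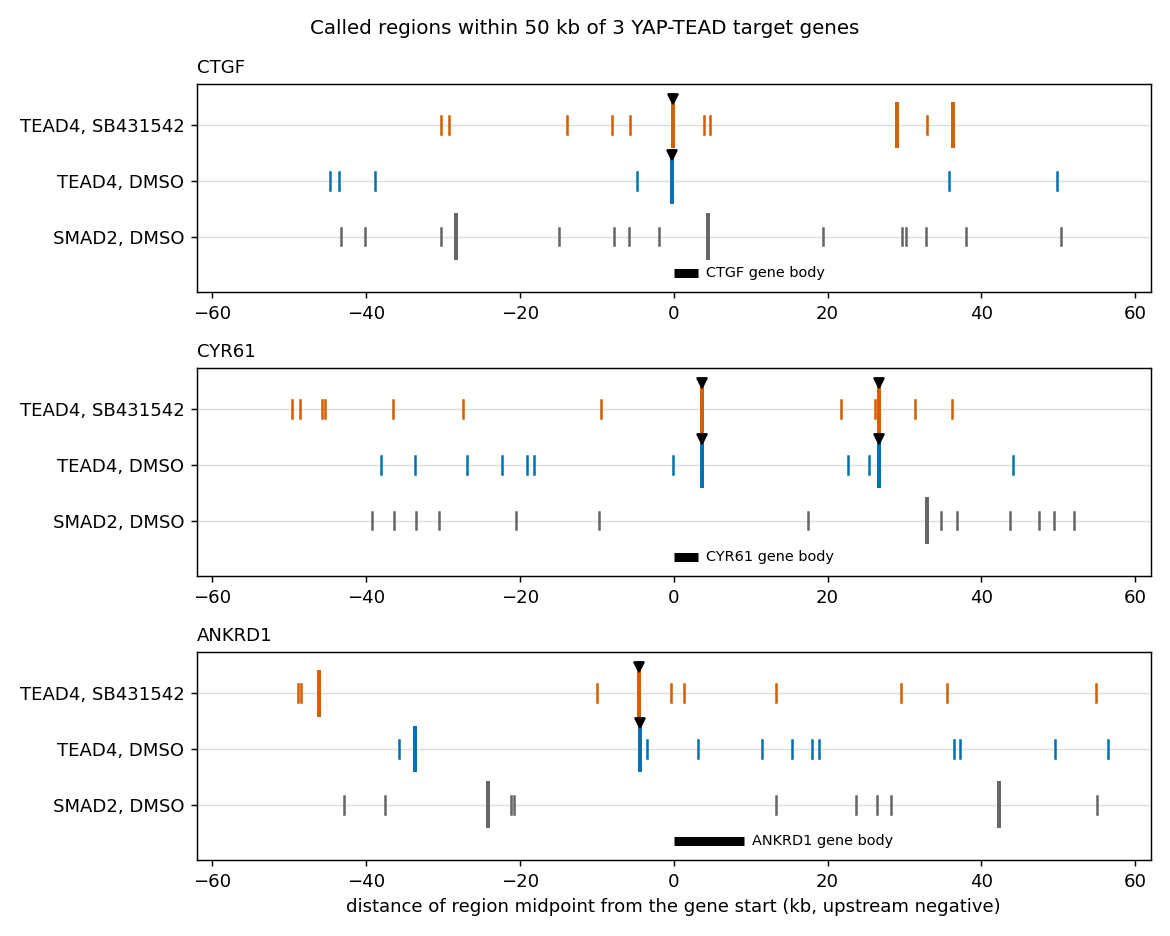
Positions of all 107 regions by distance of the midpoint from the gene start in kb (upstream negative), with a row for each list and a panel for each gene. Tall ticks are regions in the first 10% of the rows of their list, short ticks are the other regions, black triangles mark TEAD4 regions that overlap between SB431542 and DMSO, and the black bar is the gene body. The 4 marked pairs lie over the CTGF start, at 2 places downstream of CYR61 and upstream of ANKRD1, and no SMAD2 tick lies over a gene body.

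At CYR61 the leading TEAD4 regions of both treatments lay downstream of the gene and not at its start. Near the 3′ end, TEAD4 was called under SB431542 at chr1:86049948-86050212 (row 979, 265 bp wide) and in DMSO at chr1:86049901-86050299 (row 438, 399 bp wide). This DMSO region began 253 bp past the gene body. Further downstream, TEAD4 was called under SB431542 at chr1:86072961-86073349 (row 1117, 389 bp wide) and in DMSO at chr1:86072901-86073349 (row 381, 449 bp wide), 23.3 kb past the gene body. In GRCh38.p14 the next protein-coding gene on that side is ZNHIT6, and on the side of the start it is DDAH1.

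In both CYR61 pairs the SB431542 region lay wholly inside the DMSO region. Its midpoint was 20.0 bp from that of the DMSO region at the near site and 30.0 bp at the far site, and the far pair ended at the same base. Among the TEAD4 regions within 50 kb of CYR61, 13 under SB431542 and 12 in DMSO, these were the only ones in the first 10% of rows in either list.

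Over the start of CYR61 a TEAD4 region was called in DMSO alone, at chr1:86046251-86046449 (row 62722, 21.7% of the way down the list). It reached from 193 bp before the gene start to 5 bp after it. The TEAD4 region of SB431542 cells nearest the start was the one 3.50 kb downstream. The SMAD2 region nearest the start lay 9.64 kb upstream (chr1:86036651-86036799, row 295676). Of 14 SMAD2 regions, 1 stood in the first 10% of rows, at chr1:86079251-86079449 (row 21212), 5.90 kb beyond the far TEAD4 pair.

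At ANKRD1 the leading TEAD4 pair lay upstream of the gene. TEAD4 was called under SB431542 at chr10:92685334-92685705 (row 898, 372 bp wide) and in DMSO at chr10:92685251-92685649 (row 4303, 399 bp wide), 4.22 kb before the gene start. The regions shared 316 bp, which is 84.9% of the SB431542 region and 79.2% of the DMSO region. The SB431542 region reached 56 bp beyond the DMSO region, the only one of the 4 pairs in which it was not nested. PCGF5 is the next protein-coding gene on this side in GRCh38.p14, and RPP30 on the other.

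Counted from the gene start in hg19, no region of any list covered the window from 250 bases before the start of ANKRD1 to 50 after it. The sequence shown above starts from the RefSeq start, and as the gene is 8992 bp long in GRCh38.p14 and 9181 bp in hg19, the windows and the distances below may be shifted against each other. The nearest TEAD4 region under SB431542 lay 302 bp upstream of the start (chr10:92681335-92681436, row 167518), and the nearest in DMSO lay inside the gene, 3.03 kb from the start (chr10:92677801-92677999, row 257834). A TEAD4 region of SB431542 cells also lay in the gene body, at chr10:92679578-92679775 (row 79302). All 3 stood beyond the first 30% of their lists, row 79302 only just, in a run from 29.9 to 30.3%.

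Each TEAD4 list held 1 further region of ANKRD1 in its first 10% of rows, at different places. Under SB431542 it was chr10:92727112-92727309 (row 5993, in a run from row 5357 to row 6088), 46.1 kb upstream. In DMSO it was chr10:92714551-92714949 (row 5357, in a run from row 4912 to row 5419), 33.5 kb upstream, and the nearest SB431542 region was 12162 bp from it. It stood below the shared ANKRD1 region, row 4303, and was the next region of the 3 genes in that list.

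SMAD2 regions in the first 10% of rows near ANKRD1 were chr10:92638601-92638849 (row 3166), 33.0 kb past the end of the gene, and chr10:92705051-92705249 (row 19057), 24.0 kb upstream. Row 3166 stands in the same run as row 3070 at CTGF. The SMAD2 region nearest the start was chr10:92667651-92667749 (row 349894), 13.3 kb away and 4.10 kb past the end of the gene.

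**Figure D2:**
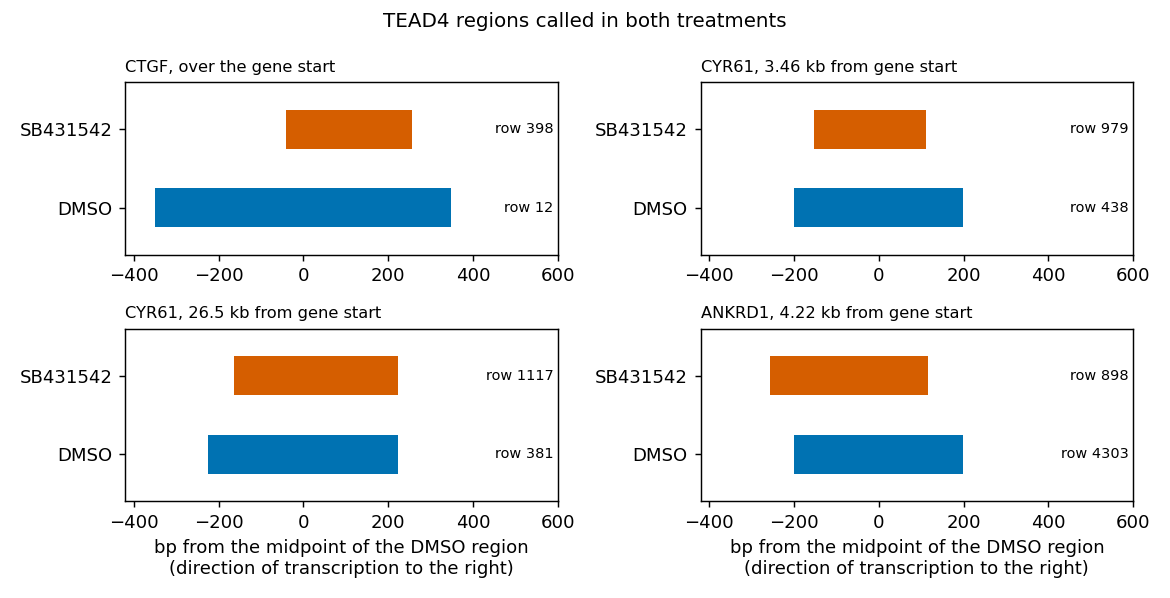
Extent of the 4 TEAD4 pairs in bp from the midpoint of the DMSO region, drawn in the direction of transcription, with SB431542 above DMSO and the row number of each region at the right. The SB431542 bar lies inside the DMSO bar at CTGF and at both CYR61 sites and extends 56 bp beyond it at ANKRD1.

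Taken over the 3 genes, 4 of 35 TEAD4 regions under SB431542 (11.4%, exact Clopper-Pearson 95% interval 3.20 to 26.7%) met one of DMSO cells, against 6.39% of the whole list. In the other direction 4 of 32 TEAD4 regions in DMSO (12.5%, 3.51 to 29.0%) met one of SB431542 cells, against 5.69% of the whole list. Both shares have intervals that include the share of the whole list. The other 31 SB431542 regions and 28 DMSO regions had no partner.

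The shared regions were also the 4 with the smallest row numbers in each TEAD4 list. Under SB431542 the shared regions held rows 398 (CTGF), 898 (ANKRD1), 979 and 1117 (CYR61), and the next region was row 5993. In DMSO they held rows 12 (CTGF), 381 and 438 (CYR61) and 4303 (ANKRD1), and the next was row 5357. The order of the genes thus differed between the lists after CTGF, but row numbers of lists made in different ways cannot show whether binding changed.

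Over the whole genome, recall was most frequent in the first rows and fell further down both TEAD4 lists. In the TEAD4 list of DMSO cells, 100% of the first 100 rows overlapped an SB431542 region, so that recall of row 12 did not set CTGF apart. Of rows 101 to 1000 it was 65.3%, and both CYR61 rows lie there. Of rows 1001 to 5000 it was 19.8%, the group of the ANKRD1 row. For the SB431542 list, 40.7% of the first 1000 rows and 26.2% of rows 1001 to 5000 overlapped a DMSO region.

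The 16782 overlapping TEAD4 pairs of the genome were ordered by the sum of both row numbers. The CTGF pair came 9th, the CYR61 pairs came 179th (near site) and 197th (far site) and the ANKRD1 pair 530th. All 11 rows before CTGF in the DMSO list had an SB431542 partner, whereas of the 397 rows before it in the SB431542 list 102 had a DMSO partner.

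**Figure D3:**
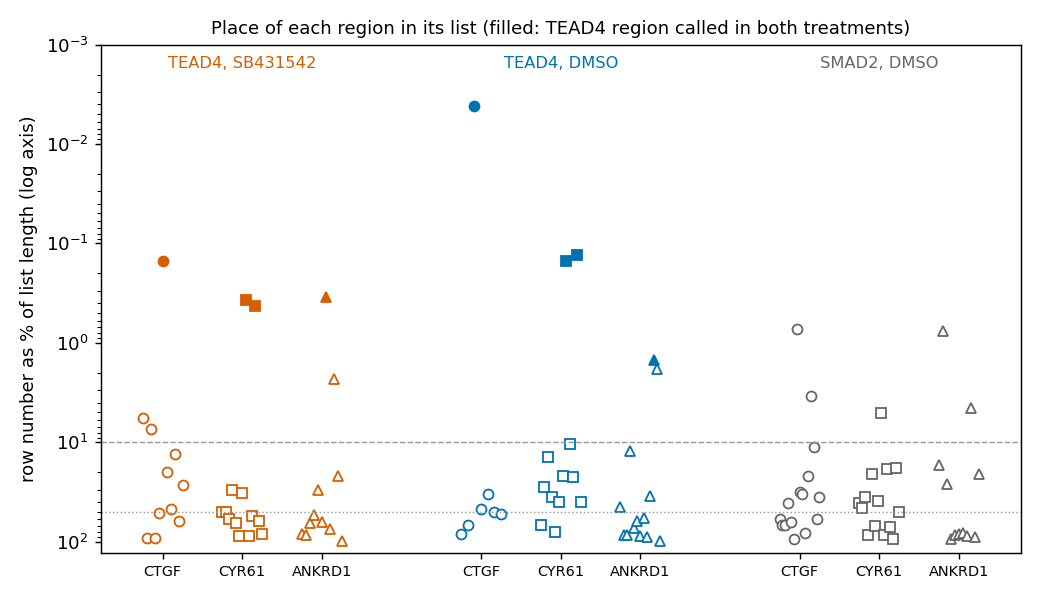
Row number as a percentage of the length of the list (log axis, first rows at the top) for every region, by list and gene. Filled points are the TEAD4 regions called in both treatments, and the dashed and dotted lines mark 10% and 50% of the rows. Filled points lie above all open points of the same TEAD4 list, from 0.152 to 0.426% under SB431542 and from 0.00415 to 1.49% in DMSO.

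With the shared regions included, the regions near the 3 genes were spread over the lists. The median row stood at 52.0% of the list for TEAD4 under SB431542, 42.4% for TEAD4 in DMSO and 44.0% for SMAD2, where 50% is the middle of a list. In the first 5000 rows stood 4 of 35 TEAD4 regions under SB431542 (11.4%, against 1.91% of the list), 4 of 32 in DMSO (12.5%, against 1.73%) and 2 of 40 SMAD2 regions (5.0%, against 1.19%). The TEAD4 regions among these are the shared ones already described. The limit of 5000 rows cuts the run of the next DMSO region (row 5357, run from row 4912 to row 5419). In the first 10% of rows stood 7 (20.0%), 5 (15.6%) and 5 (12.5%) in the same order.

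The shared regions were wide for their lists. Under SB431542 they measured 265 to 389 bp, against a median of 198 bp in the first 10% of rows and 145 bp over the list. In DMSO they measured 399 to 699 bp, against 299 bp in the first 10% and 199 bp over the list. The median width of all TEAD4 regions near the 3 genes was 151 bp under SB431542 and 199 bp in DMSO. With the widest 1% of each list removed, 1 of the 4 pairs was left, the near site of CYR61. That is 1 of 31 TEAD4 regions in DMSO (3.23%), against 5.33% of the whole list so trimmed. Wide regions overlap more easily, and width was not separated from place in the list.

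Pairs of TEAD4 regions with both rows in the first 5000 numbered 617 in the genome, with median widths of 278 bp under SB431542 and 399 bp in DMSO. Their midpoints lay a median of 36.0 bp apart, and in 64.8% the SB431542 region was nested. The midpoint distance was 108 bp at CTGF, 20.0 and 30.0 bp at CYR61 and 69.5 bp at ANKRD1. The CTGF midpoints were thus further apart than the median pair, with the SB431542 midpoint nearer the gene start.

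**Figure D4:**
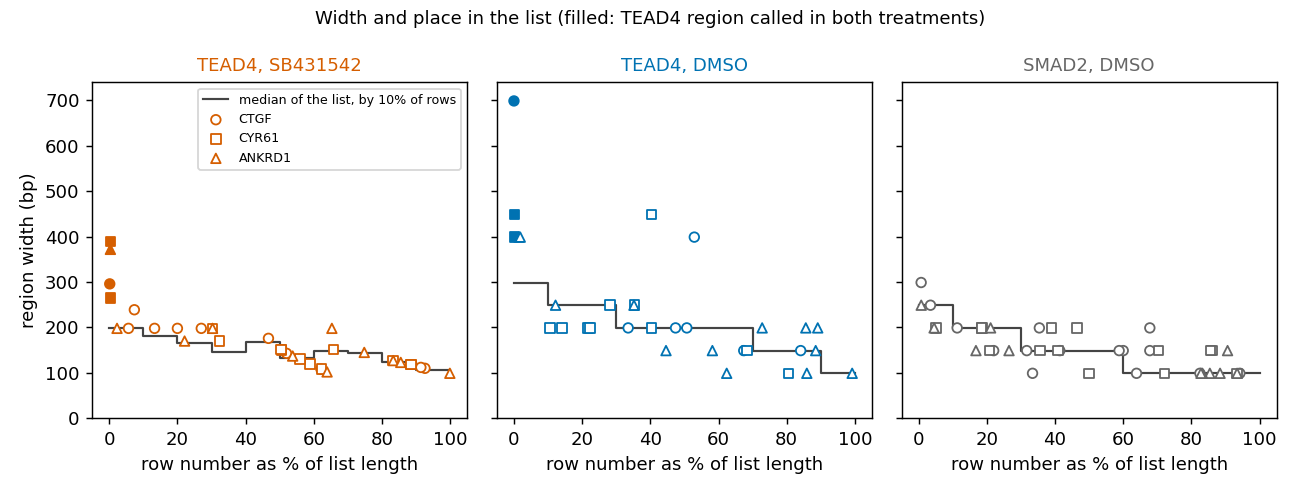
Region width in bp against row number as a percentage of the length of the list, with a panel for each list. Points are the regions near CTGF, CYR61 and ANKRD1, filled where TEAD4 was called in both treatments, and the line is the median width of the whole list in steps of 10% of rows. The filled points stand above the line, and the open points of the DMSO panel hold 2 wide regions, of 449 and 399 bp, far down the list.

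Those 2 wide TEAD4 regions of DMSO cells without a partner were chr1:86090351-86090799, 40.7 kb past the end of CYR61 (row 116491, in a run from row 106969 to row 116784), and chr6:132317051-132317449, 44.5 kb upstream of CTGF (row 153134, in a run from row 150738 to row 161841). They were as wide as the shared regions of CYR61 and ANKRD1, but stood at 40.3 and 52.9% of the list. Another TEAD4 region of DMSO cells without a partner, row 5357 upstream of ANKRD1, was also 399 bp wide but stood at 1.85% of the list.

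TEAD4 and SMAD2 regions of DMSO cells did not overlap within 50 kb of these genes. None of 32 TEAD4 regions overlapped a SMAD2 region, which allows a share of up to 9.38%, against 7.67% of the whole list. None of 40 SMAD2 regions overlapped a TEAD4 region, which allows up to 7.50%, against 5.29% of the whole list. The limits lie above the whole-list shares, so a lower share than in the rest of the genome was not detectable with this number of regions.

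The nearest approaches were pairs on neighbouring steps of the 50 bp grid. TEAD4 at chr6:132315901-132316099 (43.4 kb upstream of CTGF, row 146841) and TEAD4 at chr1:86012651-86012899 (33.5 kb upstream of CYR61, row 81257) each lay 1 bp from a SMAD2 region. Another 2 TEAD4 regions lay 151 bp and 351 bp from one. With a gap of up to 500 bp allowed, 4 of 32 TEAD4 regions had a SMAD2 neighbour (12.5%), against 22.1% of the whole list. Within 100 kb of the gene bodies, 2 of 60 TEAD4 regions overlapped a SMAD2 region (3.33%), against 7.67% of the whole list.

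The 4 shared TEAD4 regions were not among these. From the DMSO region to the nearest SMAD2 region it was 1.25 kb at CTGF, 13.1 kb at the near CYR61 site, 5.90 kb at the far CYR61 site and 16.1 kb at ANKRD1. The median over all TEAD4 regions of DMSO cells was 1.80 kb, so that CTGF lay nearer than the median and the other sites further away.

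Across treatments, SMAD2 in DMSO and TEAD4 under SB431542 overlapped at 4 places, none of them in the first 10% of rows of either list. They were 4 of 35 TEAD4 regions (11.4%, 3.20 to 26.7%, against 5.46% of the whole list) and 4 of 40 SMAD2 regions (10.0%, 2.79 to 23.7%, against 3.39%). The widest overlap, 163 bp, was between TEAD4 at chr6:132302687-132302884 (row 70856) and SMAD2 at chr6:132302651-132302849 (row 47640), 30.2 kb upstream of CTGF. At CYR61 TEAD4 row 172541 and SMAD2 row 195634 shared 73 bp, 36.4 kb upstream. At ANKRD1 TEAD4 row 141103 and SMAD2 row 349894 shared 33 bp, 13.2 kb from the start on the side of the gene end, and TEAD4 row 218327 and SMAD2 row 70544 shared 4 bp.

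Within 50 kb of these genes the density of called regions lay within counting error of that over the genome. TEAD4 under SB431542 had 11.1 regions per 100 kb (exact Poisson 95% interval 7.72 to 15.4), against 8.73 over the genome. TEAD4 in DMSO had 10.1 (6.94 to 14.3), against 9.63, and SMAD2 had 12.7 (9.06 to 17.3), against 14.0. Each interval includes the value of the whole list, but the intervals are too wide to show equal density. By gene the density lay between 10.1 and 12.6 per 100 kb under SB431542, between 6.78 and 11.9 for TEAD4 in DMSO and between 10.1 and 14.5 for SMAD2.

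Counts close to the genes are given by list. Within 5 kb of a gene start there were 7 TEAD4 regions under SB431542, 7 TEAD4 regions in DMSO and 2 SMAD2 regions, both at CTGF. A gene body was touched by 2, 3 and 0 regions in the same order. Within 10 kb of the gene bodies the density was 1.82 times that of the whole list for TEAD4 under SB431542 (12 regions), 1.51 times for TEAD4 in DMSO (11 regions) and 0.567 times for SMAD2 (6 regions). The genes differed: within 10 kb CTGF had 5, 2 and 4 regions, CYR61 2, 2 and 1, and ANKRD1 5, 7 and 1 in the same order. These counts are small, and no difference between the lists was tested.

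The limit of 50 kb cut through a dense background. The farthest regions inside it lay 49.5 kb from a gene body for TEAD4 under SB431542 (row 132410), 47.3 kb for TEAD4 in DMSO (row 129088) and 48.8 kb for SMAD2 (row 210233). The nearest outside lay at 50.2 kb (row 20834), 50.8 kb (row 23243) and 51.2 kb (row 184900) in the same order. Within 100 kb of the genes no further TEAD4 region was shared between the treatments. The shared regions were then 4 of 60 TEAD4 regions in DMSO (6.67%), against 5.69% of the whole list.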

How the data were processed

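The deposited files are 3 lists of called regions that hold, per region, a chromosome and other values that are genome positions in bp (start and end). Per the submitters' processing notes, positions are in hg19. Not given in the sources used here are the aligner, caller, threshold, control library and depth. Target and treatment in its name gave the sample of each list, and of 8 samples 5 were not analysed here. Smad in a name was read as SMAD2, the only SMAD in the sample titles, and SB as SB431542.

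Starts were raised by 1 bp for printing, and widths are end minus start. Overlap meant at least 1 bp. The background of each share is the same share over the whole list. Density was taken over the span from the first to the last region of each chromosome. Shares carry exact Clopper-Pearson and counts exact Poisson 95% intervals, and a count of 0 is given the limit of 3 counts. Overlap counting was tested on simulated regions. Regions were named if nearest a gene start, smallest in row, overlapping another list, on the gene body or 1 kb before it, or in the first 10% of rows. Others were chosen after their values were seen. The genes and lists were chosen with earlier results of these data known. Gene bodies came with the choice of genes, and the strand of CYR61 is background knowledge. Python 3.11.15, NumPy 2.4.6, pandas 2.3.3, SciPy 1.17.1 and matplotlib 3.10.9 were used.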

Additional observations from a re-analysis of the deposited data

How the results depend on the processing

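Of 74 repeats with another setting, 53 kept their value within the limits set for it and 21 did not. Counts are given as TEAD4 under SB431542, TEAD4 in DMSO and SMAD2 in DMSO. They were 12, 11 and 6 within 10 kb, 85, 60 and 91 within 100 kb, and 15, 18 and 22 in the first 50% of rows, all by construction. The ratio of density to the whole list was 1.82, 1.51 and 0.567 within 10 kb and stayed inside its interval in the other 4 settings. Of 32 TEAD4 regions in DMSO, 3 met an SB431542 region with 50% of both overlapping (9.38%, against 2.28% of the list). With midpoints at most 100 bp apart it was 3 of 32 (9.38%, against 3.6%). The pair lost in both settings was that of CTGF, with 42.3% of the DMSO region overlapped and midpoints 108 bp apart. When the widest 1% of each list was removed, 1 of 31 TEAD4 regions in DMSO met one (3.23%, against 5.33%). The CTGF pair was lost there too. TEAD4 and SMAD2 regions of DMSO cells overlapped at 0 places. With gaps of up to 500 bp it was 4 of 32 TEAD4 regions (12.5%, against 22.1% of the whole list). Within 100 kb it was 2 of 60 (3.33%, against 7.67%). With the first 10% of rows, the region nearest the gene start was another in 6 of 9 cases: SMAD2 at CTGF 4269 bp, CYR61 32807 bp and ANKRD1 -24018 bp, TEAD4 in DMSO at CYR61 3457 bp and ANKRD1 -4218 bp, and TEAD4 under SB431542 at ANKRD1 -4301 bp (upstream negative). The mean row of a run in falling genome order, chosen after seeing the data, left the median place at 52.0, 41.0 and 44.0% of the list. Of the rows, 84.0, 90.0 and 65.6% stand in such runs of over 100 rows. No paired analysis was possible because every group holds a single library, and none could be left out. Depth and threshold are unknown, which limits what a missing region can show.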
